A study of Mus musculus with 6 samples.

Results

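The PDGF ligands, the PDGF receptors and the discoidin domain receptors of collagen were followed in the OFT, the outflow tract of the embryonic heart, at E13.5 in the mouse. These 8 genes (*Pdgfa*, *Pdgfb*, *Pdgfc*, *Pdgfd*, *Pdgfra*, *Pdgfrb*, *Ddr1* and *Ddr2*) were chosen by symbol, and all 8 were found among the 28777 genes of the deposited counts and passed the filter on low counts with 28157 genes in all. Bulk RNA-Seq was available for 6 libraries, each made from 3 pooled OFTs, of which 3 carried the genotype label Notch1-het; Nos3- null and 3 the label wildtype. The mutant label stands for 1 inactivated copy of *Notch1* together with loss of both copies of *Nos3*, the endothelial nitric oxide synthase. Both are constitutive knockout alleles, present in every cell of the embryo and kept in a C57/BL6J background, and the controls carry neither. No treatment was given. Pooling means that single embryos cannot be followed, and a p-value measures only the spread between pools.

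PDGF ligands are secreted dimers that bring receptor tyrosine kinases together in pairs. PDGF-A and PDGF-C act mainly through the alpha receptor and PDGF-B through both receptors, while PDGF-C and PDGF-D are released as latent forms that a protease must cut. In the embryo, *Pdgfra* marks mesenchyme, including cells of neural crest origin that enter the OFT, and *Pdgfrb* marks mesenchyme and the mural cells that surround vessels. The discoidin domain receptors are also tyrosine kinases, but their ligand is triple-helical collagen in the matrix. DDR1 is known best from epithelia and DDR2 from mesenchyme.

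Depth lay between 34729103 and 44387490 counts per library, and levels are in CPM, where each count is divided by its library total after TMM correction so that libraries of unequal depth can be compared. The genes named in the mutant label were examined first. *Notch1* stood at 74.3, 88.2 and 83.6 CPM in wildtype replicates 1, 2 and 3 and at 154.9, 160.5 and 139.4 CPM in mutant replicates 1, 2 and 3, a log2 fold change of 0.89 with an adjusted p of 0.0313 (edgeR). This is opposite to the direction of a lost copy, although counts over the whole gene do not separate a transcript of the altered allele from the intact one. *Nos3* stood at 31.8, 47.2 and 48.1 CPM against 22.1, 22.0 and 20.4 CPM, with a log2 fold change of -0.98 and an adjusted p of 0.128. The libraries are therefore called by their labels throughout. The number of genes called depended on wildtype replicate 1: with it, 6 of 28157 genes were called (adjusted p of at most 0.05, edgeR), and without it 2593 were. These counts do not show which wildtype library is the unusual one.

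Compared per kilobase of exon, *Ddr1* was the most abundant of the 8 genes and *Pdgfd* the least. The length is that of all annotated exons merged, 10024 bases for *Pdgfra* and 4774 for *Ddr1*, and the order depends on it. By CPM alone, *Pdgfra* averaged 187.4 against 232.6 for *Ddr1* under the wildtype label, and 286.2 against 236.7 under the mutant label. In the libraries labelled wildtype, *Ddr1* averaged 48.7 ± 3.24 CPM per kb (SD, n = 3), followed by *Pdgfra* at 18.7 ± 9.90 and *Pdgfrb* at 16.3 ± 4.55. Then came the ligand *Pdgfa* at 11.8 ± 2.44 CPM per kb and *Pdgfb* at 4.49 ± 0.889. The lowest levels were those of *Ddr2* at 2.80 ± 1.15 CPM per kb, *Pdgfc* at 2.68 ± 1.20 and *Pdgfd* at 2.02 ± 0.315. In this order the neighbours whose libraries did not overlap were *Ddr1* and *Pdgfra*, and *Pdgfa* and *Pdgfb*. The ranges of the other neighbours overlapped, although *Ddr2* was above *Pdgfc* within each of the 6 libraries. In the libraries labelled mutant the order was the same, from 49.6 ± 3.24 CPM per kb for *Ddr1* to 1.84 ± 0.0164 for *Pdgfd*, and *Pdgfrb* at 23.4 ± 3.00 no longer overlapped *Pdgfa* at 10.8 ± 1.03. *Pdgfc* at 3.74 ± 0.593 CPM per kb and *Pdgfd* did not overlap there either. Among all genes tested, the mean level per kb put *Ddr1* at percentile 94.4 and *Pdgfd* at percentile 53.5, so all 8 lay above the median gene.

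**Figure D1:**
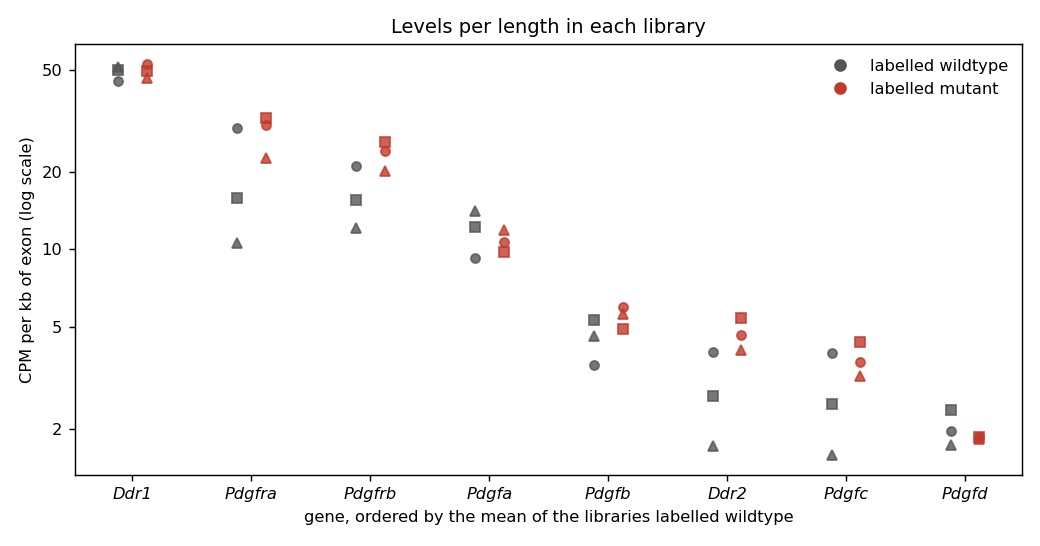
Levels per length: CPM per kb of exon (log axis) of the 8 genes in each library, grey for the libraries labelled wildtype and red for those labelled mutant (circle, square and triangle for replicates 1, 2 and 3). *Ddr1* lies above all the others, with *Pdgfra*, *Pdgfrb* and *Pdgfa* next and *Pdgfd* lowest.

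The comparison of the 2 labels asked whether expression of the 8 genes differed between them. None of the 8 was called by edgeR's quasi-likelihood test at an adjusted p of at most 0.05, where 0.0213% of all genes tested were called. *Ddr2*, *Pdgfra*, *Pdgfrb* and *Pdgfc* had higher means in the libraries labelled mutant, by log2 fold changes of 0.75, 0.61, 0.53 and 0.47. *Ddr2* and *Pdgfrb* had an unadjusted p under 0.05 in edgeR, 2 of 8 with higher values under the mutant label, against 8.24% of all genes in that direction. The groups did not overlap for 1 of 8 genes, *Ddr2*, and 10.7% of all genes had all mutant libraries above all wildtype ones. DESeq2 called *Ddr2* alone (adjusted p = 0.0451), where it called 2.31% of genes as higher under the mutant label, and limma-voom called 0 of 8, where it called 0.0178% of genes. The median log2 fold change over the 8 genes was 0.38, beside 0.01 over all genes tested. Because the 8 genes and the lists below were chosen with earlier results of these data known, such shares and medians only describe them.

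Of the 10 start-site windows that RefSeq lists for 6 of the genes (GRCm38.p6, 250 bases before to 50 after each start), 4 are shown, because *Pdgfra*, *Pdgfc* and *Ddr2* took nearly the same course across the libraries and *Ddr1* did not. *Pdgfb* and *Pdgfrb* are not in that table. Capitals mark a match on either strand to 1 of 3 motifs: TGGGAA, the core bound by RBPJ, the DNA-binding partner of NOTCH; GGGCGG, the GC box; and TATAAA, the TATA box.
*Pdgfra* promoter, chr5:75152001-75152300, plus strand: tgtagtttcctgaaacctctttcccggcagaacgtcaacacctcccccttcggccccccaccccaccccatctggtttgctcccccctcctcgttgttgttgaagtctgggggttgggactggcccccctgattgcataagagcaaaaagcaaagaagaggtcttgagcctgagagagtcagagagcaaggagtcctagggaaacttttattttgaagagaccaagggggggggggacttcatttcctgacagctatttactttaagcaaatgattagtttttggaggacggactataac
*Pdgfc* promoter, chr3:81036166-81036465, plus strand: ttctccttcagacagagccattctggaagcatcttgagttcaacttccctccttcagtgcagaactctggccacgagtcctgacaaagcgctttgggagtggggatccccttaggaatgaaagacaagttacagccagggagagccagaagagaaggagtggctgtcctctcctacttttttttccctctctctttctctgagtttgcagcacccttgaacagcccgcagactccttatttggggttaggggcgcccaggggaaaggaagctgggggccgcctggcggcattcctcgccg
*Ddr2* promoter, chr1:170088895-170089194, minus strand: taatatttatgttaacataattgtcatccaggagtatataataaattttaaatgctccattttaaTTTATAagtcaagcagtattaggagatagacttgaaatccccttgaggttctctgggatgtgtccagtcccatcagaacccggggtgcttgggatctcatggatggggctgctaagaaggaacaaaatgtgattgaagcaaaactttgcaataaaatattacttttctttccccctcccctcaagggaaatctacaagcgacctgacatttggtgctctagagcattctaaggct
*Ddr1* promoter, chr17:35701995-35702294, minus strand: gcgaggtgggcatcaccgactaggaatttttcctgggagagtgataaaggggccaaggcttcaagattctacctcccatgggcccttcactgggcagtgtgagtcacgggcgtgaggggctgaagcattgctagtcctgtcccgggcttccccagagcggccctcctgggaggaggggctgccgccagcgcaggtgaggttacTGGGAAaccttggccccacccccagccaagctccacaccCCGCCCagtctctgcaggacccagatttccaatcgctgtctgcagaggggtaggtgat
No match to the 3 motifs occurs in the *Pdgfra* or *Pdgfc* window. The *Ddr2* window holds 1 TATA box on the minus strand of the window as printed, and it lies inside the longer gene that GENCODE annotates. The *Ddr1* window holds 1 RBPJ core and 1 GC box. It is shown because it is the only 1 of the 4 *Ddr1* windows with an RBPJ core, so it does not stand for the others. Of the windows not shown, 1 of *Pdgfa* and that of *Pdgfd* also hold an RBPJ core. Over all 32851 RefSeq promoters of this length, 25.6% held TGGGAA, 35.7% held GGGCGG and 13.6% held TATAAA. No match overlaps another, and a match describes letters only.

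The PDGF receptors were higher in the libraries labelled mutant on average, but each group held a library that crossed into the other. *Pdgfra* (ENSMUSG00000029231), the receptor of PDGF-A and PDGF-C, lies on the plus strand at chr5:75152292-75198215 of mm10. Its level was 297.8, 158.5 and 105.8 CPM in wildtype replicates 1, 2 and 3, and 305.9, 326.0 and 226.8 CPM in mutant replicates 1, 2 and 3. Wildtype replicate 1 lay between the libraries labelled mutant, and the other wildtype libraries lay below them all. The means were 187.4 ± 99.2 and 286.2 ± 52.4 CPM (SD, n = 3 each). The fold was 1.53, with a log2 fold change of 0.61 (SE 0.30) and an adjusted p of 0.341 (edgeR), and the exact permutation test gave p = 0.2. Within the wildtype label the highest library was 2.81 times the lowest, more than the fold between the labels. In bulk tissue, fewer cells of a type and less RNA per cell cannot be told apart.

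*Pdgfrb* (ENSMUSG00000024620; chr18:61045150-61085061, plus strand) encodes the receptor of PDGF-B and PDGF-D. It stood at 115.7, 85.0 and 66.3 CPM under the wildtype label and at 131.7, 142.8 and 110.5 CPM under the mutant label. As for *Pdgfra*, wildtype replicate 1 was above mutant replicate 3 and below the other mutant libraries, and the order of the 6 libraries from high to low was identical for the 2 receptors. The log2 fold change was 0.53 (SE 0.18; fold 1.44; unadjusted p = 0.0137 and adjusted p = 0.23, edgeR), with p = 0.2 in the exact permutation test. Per length and within a library, *Pdgfra* was 1.41, 1.02 and 0.872 times *Pdgfrb* under the wildtype label and 1.27, 1.25 and 1.12 times under the mutant label. This ratio of receptors overlapped between the labels, as did that of *Pdgfra* to *Ddr2*. The ratio of *Pdgfrb* to *Ddr2* did not overlap, at 5.28, 5.78 and 7.08 under the wildtype label and 5.18, 4.81 and 4.98 under the mutant label. Wildtype replicate 1 and mutant replicate 1 were nearly equal in it, and no share over other pairs of genes was taken.

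*Ddr2* (ENSMUSG00000026674; chr1:169972307-170110762, minus strand), the collagen receptor of mesenchyme, had the highest log2 fold change of the 8 genes. It was measured at 37.0, 24.9 and 15.8 CPM in the wildtype libraries and at 43.0, 50.3 and 37.5 CPM in the mutant libraries. All mutant libraries were above all wildtype ones, but wildtype replicate 1 and mutant replicate 3 were nearly equal. The means were 25.9 ± 10.7 and 43.6 ± 6.40 CPM, a fold of 1.68 and a log2 fold change of 0.75 (SE 0.24; unadjusted p = 0.0108 and adjusted p = 0.222, edgeR). The exact permutation test gave p = 0.1, the smallest that 3 libraries against 3 allow.

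*Ddr1* (ENSMUSG00000003534; chr17:35681567-35704621, minus strand), the other collagen receptor, showed little spread of any kind. Its values were 214.9, 239.2 and 243.7 CPM under the wildtype label and 252.3, 236.4 and 221.5 CPM under the mutant label. High and low libraries occurred in both groups. The log2 fold change was 0.03 (SE 0.10, adjusted p = 0.929, edgeR), and its sign turned when wildtype replicate 1 or mutant replicate 1 was left out (-0.03 and -0.02). It turned with a correction for GC content and length as well (-0.16, adjusted p = 0.328, edgeR). With *Ddr1* level and *Ddr2* variable, the ratio of *Ddr1* to *Ddr2* per length was 11.3, 18.7 and 29.9 in the wildtype libraries and 11.4, 9.13 and 11.5 in the mutant libraries. Wildtype replicate 1 fell among the mutant libraries in this ratio.

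**Figure D2:**
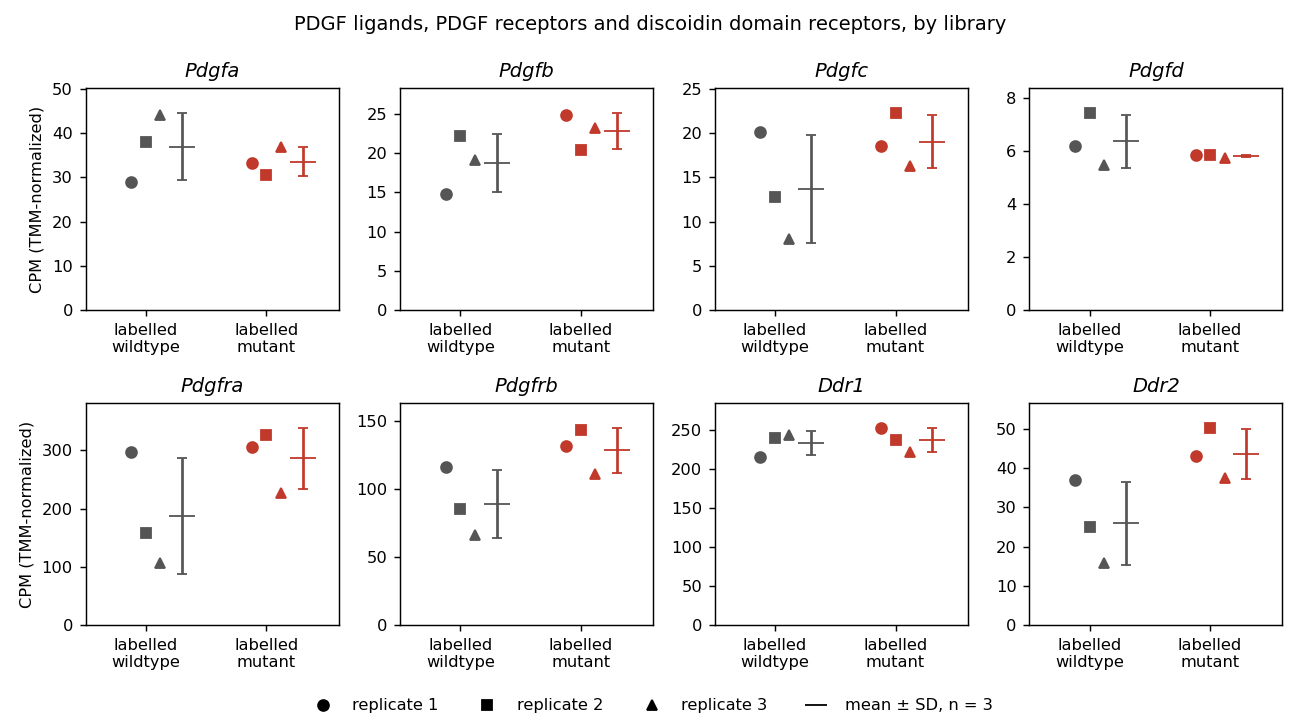
Values by library: CPM of each of the 8 genes (vertical axes from 0) in the libraries labelled wildtype (grey) and mutant (red), with symbols for replicates 1, 2 and 3 and a bar for the group mean ± SD (n = 3). For *Pdgfra*, *Pdgfrb*, *Pdgfc* and *Ddr2*, wildtype replicate 1 sits near the mutant libraries and wildtype replicate 3 is lowest.

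Of the ligands, *Pdgfc* resembled the alpha receptor and the other 3 did not. *Pdgfc* (ENSMUSG00000028019; chr3:81036416-81214040, plus strand), a latent ligand of the alpha receptor, stood at 20.2, 12.7 and 8.04 CPM under the wildtype label and at 18.5, 22.3 and 16.3 CPM under the mutant label. Wildtype replicate 1 exceeded all mutant libraries except replicate 2. The log2 fold change was 0.47 (SE 0.26, adjusted p = 0.399, edgeR; exact permutation p = 0.3).

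*Pdgfa* (ENSMUSG00000025856; chr5:138976014-138997370, minus strand), the other main ligand of the alpha receptor, ran differently across the libraries. Its levels were 28.9, 38.0 and 44.0 CPM under the wildtype label and 33.2, 30.5 and 36.9 CPM under the mutant label, so that wildtype replicate 3, the lowest library for *Pdgfra*, was the highest for *Pdgfa*. The log2 fold change was -0.14 (SE 0.15, adjusted p = 0.685, edgeR; exact permutation p = 0.6), and it was 0.01 without wildtype replicate 3. Per length, *Pdgfa* was 2.34, 4.86 and 8.93 times *Pdgfc* in the wildtype libraries and 2.93, 2.24 and 3.70 times in the mutant libraries. In all 6 libraries *Pdgfa* was thus the more abundant of these ligands, with the widest range among the wildtype libraries.

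*Pdgfb* (ENSMUSG00000000489; chr15:79995874-80014977, minus strand), the ligand that endothelium supplies to mural cells, stood at 14.8, 22.2 and 19.1 CPM against 24.9, 20.4 and 23.2 CPM. Mutant replicate 2 fell below wildtype replicate 2, and the log2 fold change was 0.29 (SE 0.15, adjusted p = 0.365, edgeR; exact permutation p = 0.2). *Pdgfd* (ENSMUSG00000032006; chr9:6168584-6378850, plus strand), a latent ligand of the beta receptor, was the lowest of the 8 per length, at 6.19, 7.44 and 5.48 CPM against 5.85, 5.84 and 5.76 CPM. The mutant libraries lay within the range of the wildtype ones, with a log2 fold change of -0.13 (SE 0.16, adjusted p = 0.722, edgeR; exact permutation p = 0.5). The ratio of *Pdgfb* to *Pdgfd* per length was 1.81, 2.26 and 2.64 under the wildtype label and 3.23, 2.64 and 3.06 under the mutant label. It did not overlap between the labels, but wildtype replicate 3 and mutant replicate 2 were nearly equal. The 4 ligand genes summed to between 70.0 and 80.3 CPM under the wildtype label and between 79.0 and 82.4 CPM under the mutant label. The 2 receptor genes summed to between 172.2 and 413.5 CPM and between 337.4 and 468.8 CPM.

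Single libraries set the size of these differences. Without wildtype replicate 1, 4 of 8 genes were called as higher under the mutant label (edgeR), where 4.15% of all genes were called in that direction. The log2 fold changes were then 1.11 for *Pdgfra* (adjusted p = 0.0190, edgeR), 1.10 for *Ddr2* (0.0191), 0.87 for *Pdgfc* (0.0328) and 0.76 for *Pdgfrb* (0.0201). Without wildtype replicate 3 they were 0.33, 0.49, 0.21 and 0.35 in the same order of genes, and 0 of 8 were called, where 0.00721% of all genes were. *Pdgfa*, *Pdgfb*, *Pdgfd* and *Ddr1* were not called in any of the 17 other settings run.

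**Figure D3:**
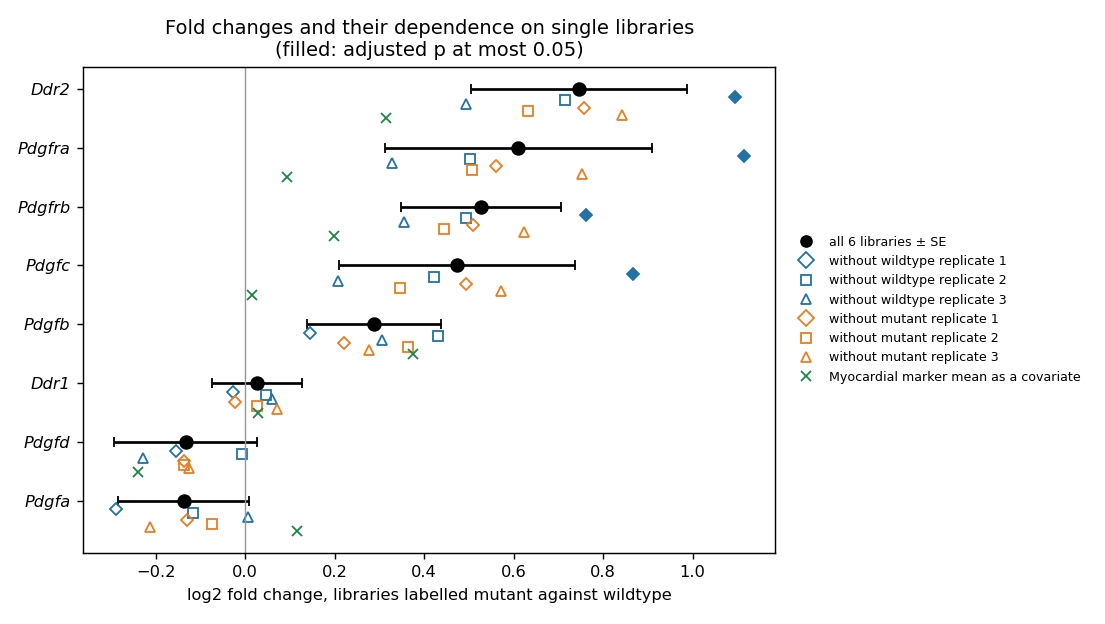
Fold changes: log2 fold change of each gene between the labels, with all 6 libraries (black, ± SE), with each library left out in turn (open symbols, filled where the adjusted p was at most 0.05) and with the mean of the myocardial markers as a covariate (green crosses). The filled symbols are the 4 genes called without wildtype replicate 1, and the crosses of *Ddr2*, *Pdgfra*, *Pdgfrb* and *Pdgfc* lie at 0.32, 0.09, 0.20 and 0.02.

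Marker genes of mesenchyme and of myocardium also had different means under the 2 labels, in opposite directions. Of 10 mesenchymal markers, which mark mesenchyme in general and not that of the OFT cushions alone, all 10 had a log2 fold change above 0. An unadjusted p under 0.05 was found for 7 (edgeR; 8.24% of all genes in that direction). The 10 markers had a median log2 fold change of 0.61, with 0 called. Their summed level was between 2117 and 4219 CPM under the wildtype label and between 3931 and 4376 CPM under the mutant label, and none was at 0. Wildtype replicate 1, at 4219 CPM, was at the level of the mutant libraries. Of 10 myocardial markers, all 10 had a log2 fold change below 0 and 7 an unadjusted p under 0.05 (edgeR; 7.82% of all genes in that direction), with a median of -0.49 and a sum of between 22018 and 30157 CPM against between 16085 and 21237 CPM. With the mean of the myocardial markers as a covariate, the log2 fold changes were 0.32 (SE 0.19) for *Ddr2*, 0.20 (0.15) for *Pdgfrb*, 0.09 (0.24) for *Pdgfra* and 0.02 (0.22) for *Pdgfc*. The centred covariate was 0.04, 0.07 and 0.62 in the wildtype libraries and -0.27, -0.62 and 0.17 in the mutant libraries. It thus runs partly with the label, and this fit cannot fully separate them. The covariate changed the sign for *Pdgfa*, to 0.11. The part of cell composition in these differences was not tested beyond these values.

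Set against the mesenchymal markers within each library, the 4 genes differed little between the labels. The mean log2 CPM of the markers was taken from that of each gene, and the difference between the labels was then 0.03 for *Pdgfra*, -0.14 for *Pdgfrb*, 0.12 for *Ddr2* and -0.14 for *Pdgfc*, with overlap for each. The range over the 6 libraries was 0.29 on this scale for *Pdgfra*, against 1.62 for *Pdgfra* itself. For *Ddr2* it was 0.29 against 1.66, for *Pdgfc* 0.34 against 1.46 and for *Pdgfrb* 0.40 against 1.11. The other 4 genes did not follow the markers, with differences of -0.82 for *Pdgfa*, -0.82 for *Pdgfd*, -0.67 for *Ddr1* and -0.40 for *Pdgfb*, again with overlap for each. These differences include the shift of the markers themselves. On their own, these genes had log2 fold changes of -0.14, -0.13, 0.03 and 0.29 in the same order.

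**Figure D4:**
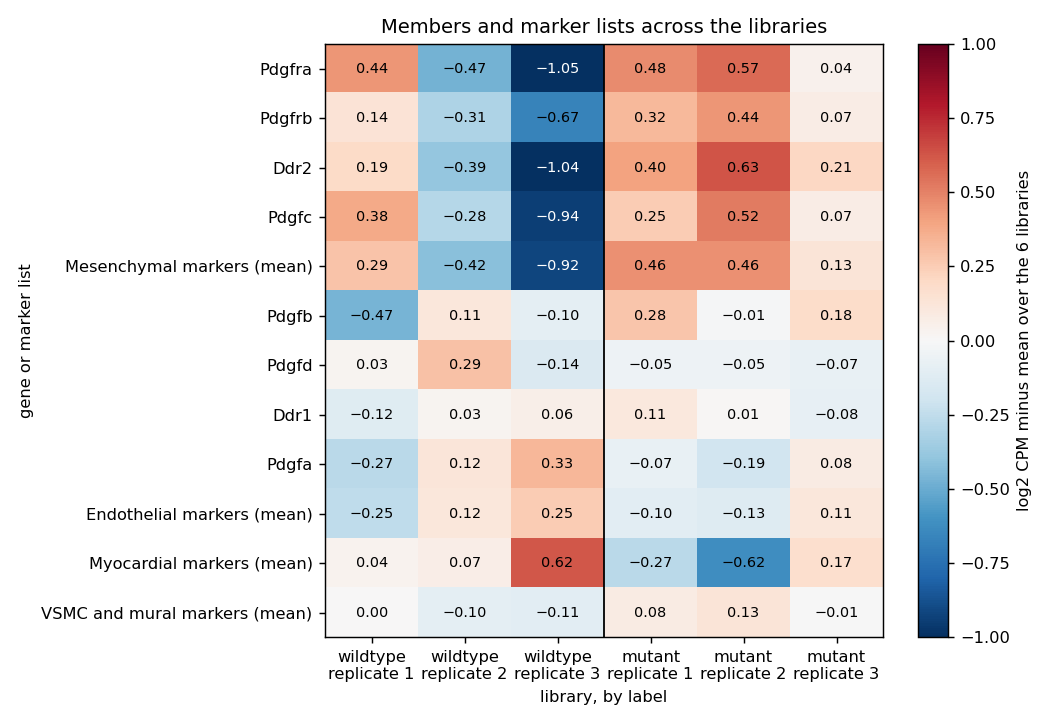
Members and markers: log2 CPM minus its mean over the 6 libraries, for the 8 genes and for the mean of each marker list, with red above and blue below that mean. *Pdgfra*, *Pdgfrb*, *Ddr2*, *Pdgfc* and the mesenchymal markers are lowest in wildtype replicate 3 and above their mean in wildtype replicate 1 and in every mutant library.

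Markers of vessel walls, where *Pdgfrb* is known, lay on both sides of 0. Of 10 VSMC (vascular smooth muscle cell) and mural markers, 4 were higher and 2 lower under the mutant label at an unadjusted p under 0.05 (edgeR; 8.24% and 7.82% of all genes), with 0 called and a median log2 fold change of 0.02. The mural genes *Notch3*, a NOTCH receptor, and *Rgs5*, a regulator of G protein signaling, had log2 fold changes of 0.63 (adjusted p = 0.212, edgeR) and 0.83 (0.291). Their libraries stood in the same order from high to low as those of *Pdgfrb*. This order was not particular to mural genes. It was also that of *Pdgfra* and of some collagen and mesenchymal genes, and the other VSMC and mural markers had other orders. *Cspg4*, a proteoglycan of pericytes, had 0.27 without overlap (0.233), and *Abcc9*, a potassium channel subunit, had -0.83 (0.218). Contractile genes differed in direction as well. *Myh11*, the smooth muscle myosin, was at most 5.15 CPM and had 1.04 without overlap (adjusted p = 0.181, edgeR), while *Cnn1*, between 256.2 and 367.0 CPM, had -0.29 without overlap (0.260). Of the 10 VSMC and mural markers, 2 were higher and 1 lower under the mutant label without overlap, against 10.7% and 8.94% of all genes. *Acta2* lay between 1054 and 1628 CPM (log2 fold change -0.25, adjusted p = 0.384, edgeR), and *Tagln* was at most 3.04 CPM. Wildtype replicate 3 was the highest library for *Abcc9*, *Cnn1* and *Acta2*, as for the mean of the myocardial markers. The order of the libraries for *Abcc9* was that of the myocardial marker *Ryr2*. Whether these transcripts came from vessel walls or from myocardium was not tested, so this list does not stand for vessel walls alone. Of 8 endothelial markers, the source known for *Pdgfb*, 7 had a log2 fold change below 0, with a median of -0.06. *Tagln* shares 1241 exon bases with an antisense gene. Median log2 fold changes were -0.56 over 6 blood markers, -0.45 over 6 megakaryocyte and platelet markers, -0.20 over 7 epicardial, -0.02 over 7 macrophage, 0.37 over 5 neural crest and glial and -0.37 over 5 epithelial and endodermal markers, with 0 called in each list. *Foxa2*, an endodermal marker, was under the filter on low counts.

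The genes whose course across the 6 libraries was closest to each receptor were sought among 11285 genes that averaged 10 CPM or more, by the root mean square difference of centred log2 CPM. For *Pdgfra* they were *Unc5c*, a netrin receptor (0.04), *Dclk1*, a microtubule-associated kinase (0.05), and *Has2*, the hyaluronan synthase of cushion matrix (0.06), where the median over all genes was 0.61. *Pdgfc* and *Ddr2*, at 0.13 each, ranked 35 and 36 in that list, and *Pdgfrb*, at 0.23, ranked 148. For *Ddr2* they were *Fmod*, a collagen-binding proteoglycan, *Piezo2*, a mechanically gated channel, and *Col6a3*, a collagen VI chain (0.05, 0.05 and 0.07; median 0.58). For *Pdgfrb* they were *Epha3*, an ephrin receptor, *Lrp1*, and *Fzd7*, a WNT receptor (0.04 each; median 0.41). For *Ddr1* they were *Eef2*, an elongation factor of translation, *Strn4* and *Pafah1b3* (0.02 each; median 0.17).

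The other genes of the pathway were taken as whole lists by function, and 0 genes in each list were called by edgeR. Of 8 genes listed under PDGF ligand processing and co-receptors, 3 had an unadjusted p under 0.05 (edgeR). All 3 had higher values under the mutant label (8.24% of all genes), and the median log2 fold change of the 8 was 0.25. For 4 of the 8, all mutant libraries lay above all wildtype ones (10.7% of all genes). *Plau*, the urokinase that can cut latent PDGF-D, stood at 15.1, 13.7 and 11.0 CPM against 16.5, 19.8 and 19.3 CPM (log2 fold change 0.48, adjusted p = 0.197, edgeR). *St14*, *Furin* and *Plat*, which encode other proteases, did not overlap between the labels either, with log2 fold changes of 0.28, 0.21 and 0.13. *Lrp1*, an endocytic receptor that binds the beta receptor, had 0.53 with overlap. It is named as a nearest pattern of *Pdgfrb*, so a fold change near that of *Pdgfrb* follows from this choice. Of 20 genes of signal transduction below the receptors, 3 had an unadjusted p under 0.05 (edgeR), 2 higher and 1 lower under the mutant label, close to the 16.1% of all genes in either direction, and the median was 0.05. *Grb2*, the adaptor that links receptors to RAS, stood at 56.1, 59.7 and 65.6 CPM against 51.9, 48.6 and 54.4 CPM (log2 fold change -0.23, adjusted p = 0.292, edgeR). *Fyn*, a SRC-family kinase, had 0.15 and the adaptor *Nck1* -0.12.

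Of 12 collagen genes whose products the discoidin domain receptors bind, 9 had a log2 fold change above 0, as *Ddr2* had. An unadjusted p under 0.05 was found for 7 of them (edgeR), all higher under the mutant label (8.24% of all genes), with a median log2 fold change of 0.39. DESeq2 called 2 of the 12, and edgeR called 6 without wildtype replicate 1, against 4.21% and 9.45% of all genes in either direction. *Col1a1*, the main fibrillar collagen chain, stood at 930.4, 882.0 and 621.6 CPM against 1251, 1341 and 1010 CPM (log2 fold change 0.57, adjusted p = 0.196, edgeR). The collagen VI chains *Col6a1* and *Col6a2* also separated the labels without overlap, with 0.50 and 0.27. All mutant libraries thus lay above all wildtype ones for 3 of the 12 collagen genes (10.7% of all genes). Among 9 other collagen receptors, the median was 0.19, and 3 had an unadjusted p under 0.05 (edgeR), all higher (8.24% of all genes). *Itga10*, a collagen-binding integrin subunit of cartilage, stood at 3.22, 1.93 and 1.88 CPM against 4.95, 4.16 and 5.01 CPM, a log2 fold change of 1.00 (adjusted p = 0.181, edgeR), and *Itga11* had 0.51. Of 7 related tyrosine kinases and ligands the median was 0.06. For 2 of the 7, all mutant libraries lay above all wildtype ones (10.7% of all genes). These were *Kitl*, the ligand of KIT, and *Csf1*, the macrophage growth factor, with 0.46 and 0.24.

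**Figure D5:**
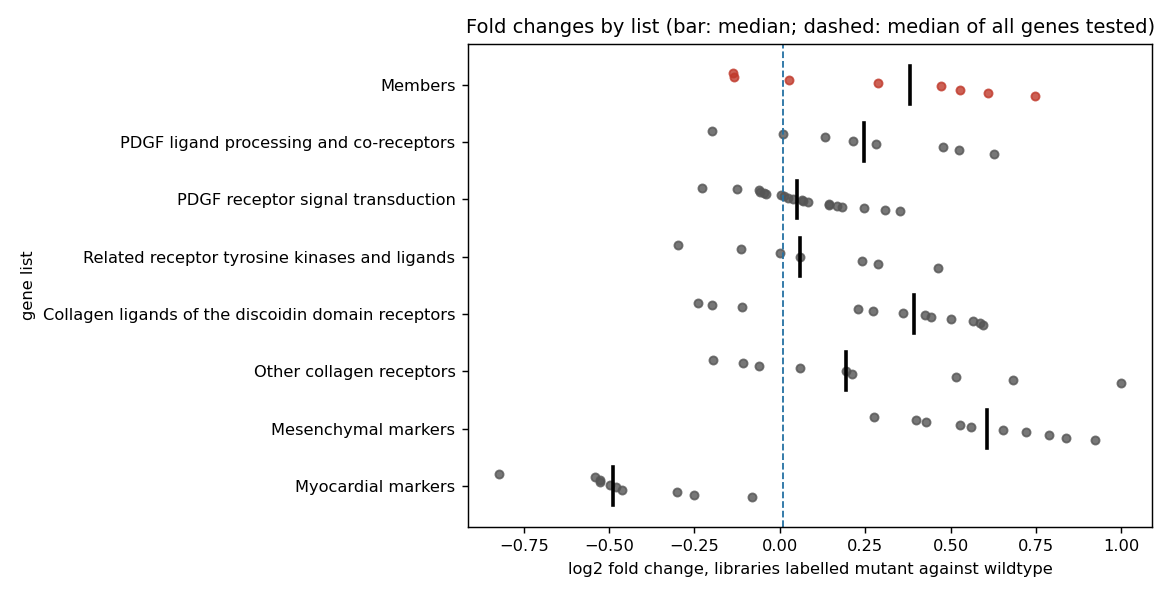
Lists: log2 fold change between the labels of each tested gene (points), for the 8 genes (red), the pathway lists and 2 marker lists (grey), with black bars at list medians and a dashed line at the median of all genes tested. The 8 genes, with a median of 0.38, and the collagens, with 0.39, lie between the medians of all genes (0.01) and of the mesenchymal markers (0.61).

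Some exon bases of the 8 genes are shared with neighbours, and how such reads were counted is not given in the sources used here. *Pdgfa* shares 813 exon bases with the antisense gene *6330403L08Rik*, which was counted at between 9.71 and 14.8 CPM. *Ddr2* shares 90 bases with the antisense gene *3110045C21Rik*, at between 1.12 and 1.82 CPM, whose wildtype libraries were above all mutant ones, opposite to *Ddr2* (log2 fold change -0.38, adjusted p = 0.492, edgeR). *Pdgfra* shares 456 bases with the antisense gene *Gm42802* and *Pdgfc* 147 with the antisense gene *Gm16000*, neither of which was analysed here. *Pdgfra* also shares 166 bases with *Gm42803* and 30 with *Mir7025*, and *Ddr1* shares 216 with *Gm4577*, all under 1 CPM. *Pdgfb*, *Pdgfd* and *Pdgfrb* share none.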

How the data were processed

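Bulk RNA-Seq libraries of mouse E13.5 OFT were analysed, 3 with each label. Alignment by the authors used TopHat2 2.1.0 and mm10, exon reads were counted with GenomicAlignments, and the deposited table holds raw counts per gene without normalization. Strand and overlap settings of the counting are not given in the sources used here. Symbols, positions and exon lengths came from GENCODE M21, which holds 28723 of 28777 identifiers. Genes with more than 5 reads over all libraries were scaled by TMM and compared with edgeR 4.0.16 (quasi-likelihood, R 4.3.3), with Benjamini-Hochberg adjustment over 28157 genes at 0.05. DESeq2 1.42.0 and limma 3.58.1 (voom) were alternatives. The exact permutation tests were two-sided, on log2 of CPM plus 0.5. Scripts were tested on simulated data.

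The members and the gene lists were chosen with earlier results of these data known. All 8 members are described, and from each other pathway list up to 4 genes are named, those with the largest absolute log2 fold change among genes of at least 1 CPM whose groups did not overlap. *Lrp1* is named as a nearest pattern, and *Acta2*, *Cnn1*, *Tagln*, *Myh11*, *Notch3*, *Rgs5*, *Cspg4*, *Abcc9*, *Ryr2* and *Foxa2* were named after their values were seen. Titles and descriptions exchange the library numbers of wildtype replicates 2 and 3, and the title number serves here as a name only.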

Additional observations from a re-analysis of the deposited data

How the results depend on the processing

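The number of genes called moved most with wildtype replicate 1. Leaving out 1 library at a time gave between 1 and 2593 genes in place of 6, and between 0 and 4 of the 8 genes, with every call of these 4 and the 2593 arising without wildtype replicate 1. DESeq2 called 749 genes and 1 of the 8. An adjusted p of at most 0.01 left 2 genes (edgeR). Scaling by library size alone shifted the all-gene median to 0.11 (log2) and called none of the 8. *Ddr1* reversed with the GC and length correction (-0.16), with that correction and the replicate block (-0.16), and on leaving out wildtype replicate 1 (-0.03) or mutant replicate 1 (-0.02), in a range of -0.028 to 0.071 over the libraries left out. *Pdgfa* reversed with the myocardial covariate (0.11) and without wildtype replicate 3, with a range of -0.29 to 0.0062 over the libraries left out. The other 6 genes kept their direction in all 17 settings, but not their size. The GC and length correction gave 0.13 for *Pdgfb*, 0.39 for *Pdgfrb* and 0.43 for *Pdgfc*, where the main fit gave 0.29, 0.53 and 0.47. For *Pdgfra*, *Ddr2* and *Pdgfd* it gave 0.56, 0.71 and -0.08, where the main fit gave 0.61, 0.75 and -0.13. The fewest counts of a member in a library were 178 (*Pdgfd*, wildtype replicate 3), and the effect of depth was not tested.

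The controls were wildtype littermates in the paper, but the labels do not say whether same-numbered libraries share a litter or a batch. This was not tested. Deviations of the same-numbered libraries correlated at 0.096, 0.16 and 0.42 by the titles over 16655 genes. Pairs with different title numbers lay between -0.44 and 0.28, and mutant replicate 2 correlated better with wildtype replicate 1 (0.28) than with wildtype replicate 2. With the replicate block of the titles, edgeR called 1577 genes (5.6%) and 3 of the 8 (*Ddr2*, *Pdgfra* and *Pdgfrb*), and with GC and length correction added 2279 genes (8.09%) and 3 of the 8. With the replicate block of the descriptions, 78 genes and 0 of the 8 were called.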
